A study of Mus musculus with 46 samples.

Results

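Each cell of a hybrid mouse carries 1 C57 copy and 1 CAST copy of every autosomal gene, and a sequencing read that covers a site at which the strains differ can be credited to its copy. The account below follows how the 2 copies of each autosomal gene varied together from animal to animal in the dorsal raphe nucleus at postnatal day 5 (P5). The genes were the autosomal ones whose CAST and C57 counts summed to 100 or more on average over the P5 animals, which left 8392 of the 15499 genes in the table. The threshold fell between Efemp2, kept with a mean summed count of 100 and an allele correlation of 0.131, and Timm13, left out with 99.9 and 0.358. A further 261 X-linked genes and 111 genes without a chromosome in the annotation reached the same count and were not among the 8392.

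The series holds allele counts from RNA-seq of 46 female F1 hybrids, all from the dorsal raphe nucleus. At P5 there were 7 animals of the F1i cross and 7 of the F1r cross, which are reciprocal crosses of the C57 and CAST strains, and no animal was treated. The same numbers of F1i and F1r animals at postnatal day 15 (P15) served for comparison, and the adults were not used here. The maternal strain of each cross and any shared litters are not stated in the labels, so p-values refer to the spread between these animals.

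In most autosomal genes both copies sit in the same nucleus and see the same transcription factors, so that a change in the number of expressing cells or in the activity of a pathway moves both copies. Genomic imprinting and X inactivation are the textbook exceptions, in which 1 parental copy, or 1 X chromosome in each cell, is silent. The dorsal raphe nucleus is the main source of serotonin in the forebrain, and it also holds GABA and glutamate neurons, astrocytes and oligodendrocytes that begin to form myelin after birth.

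Total counts, with both alleles summed, ranged between 5100560 and 10319139 over the 14 P5 animals, and CAST reads made up 50.6% to 50.7% of autosomal counts in F1i and 50.0% in F1r animals. Among the tissue markers fixed for the serotonergic neuron, Tph2, Slc6a4, Fev, Ddc and Gata3 reached the count limit. Maob and Lmx1b did not, with mean summed counts of 38.4 and 43.4. Slc18a2 was a fixed marker too, and no value is given for it here. Tph2, which makes serotonin, had a median summed level of 94.5 CPM (a count divided by its library total and rescaled) in F1i and 118 CPM in F1r animals. The first principal component of the summed log2 CPM values carried 14.9% of the variance, and F1r replicate 2 had the largest loading on it, 0.715. In bulk tissue, fewer cells of a type and less RNA per cell cannot be told apart, and this holds for every gene below.

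For each gene, the log2 CPM of the CAST allele was correlated with that of the C57 allele over the 14 animals after the mean of each cross had been removed. The correlation of the alleles was modest in most genes. The median Pearson r was 0.175, with quartiles of −0.0570 and 0.399, and r was above 0 in 69.5% of the 8392 genes. Median r was 0.178 within the F1i animals and 0.207 within the F1r animals. A permutation test that shuffled animals within crosses, with Benjamini-Hochberg adjustment over all 12050 genes of a mean summed count of 20 or more, called 71 of the 8392 genes positive at an adjusted p of 0.05 (0.846%), against a background of 0.606% of all genes tested. No autosomal gene was called negative by this test, against a background of 0.0415%, which consisted of 5 X-linked genes. At an unadjusted p of 0.05, the permutation test gave 994 genes with a positive r (11.8%, background 9.5%) and 89 with a negative r (1.06%, background 1.97%). The X-linked genes of 100 or more counts made up 73 of the 237 genes behind this last background.

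The size of r is limited by how many reads each allele has, because 2 alleles that do exactly the same still differ by counting. The same correlation was therefore computed for reads that are dealt to CAST and C57 at random, in the CAST share of each cross, while each animal keeps its own summed count. In the 8375 genes with a mean count of 10 or more on each allele, the median observed r was 0.175 and the median r of this binomial split was 0.188. The median difference, observed minus split, was −0.0222, with quartiles of −0.155 and 0.113, and 45.5% of genes lay above their split value. These differences are descriptions and carry no test.

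The observed value followed the split value over its whole range. The split keeps each animal's summed count, and the spread of that sum already holds the joint variation of the alleles. This agreement, and the split classes of the called genes, are therefore partly fixed in advance. Genes with a split r below 0 had a median observed r of −0.168 and a median split r of −0.117. Between 0.25 and 0.5 the medians were 0.339 observed and 0.350 split, and at 0.75 or more they were 0.826 observed and 0.810 split. Of the 71 called genes, 54 were among the 144 genes of the highest of these classes (37.5%) and 16 among the 723 genes with a split r of 0.5 to 0.75.

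**Figure D1:**
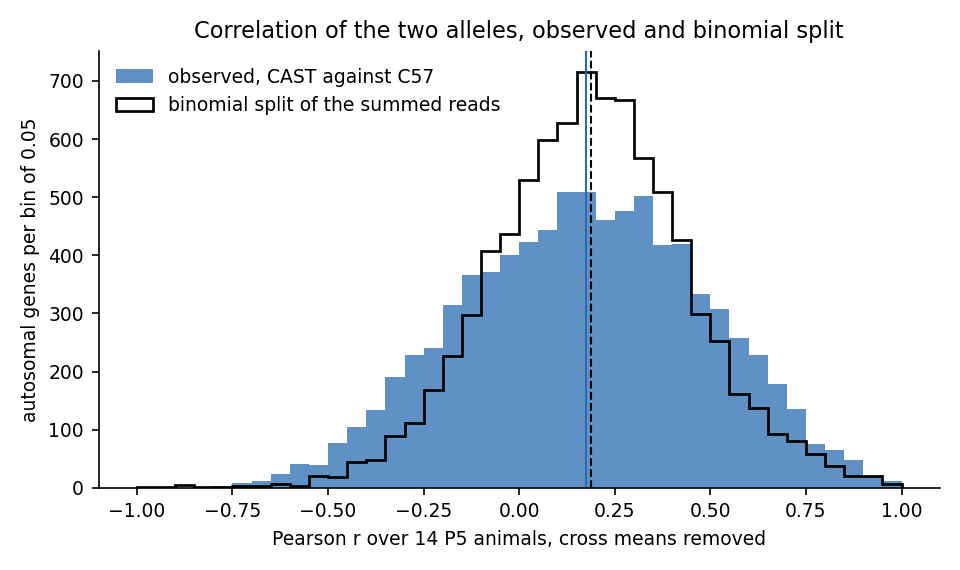
Number of autosomal genes (vertical axis, bins of 0.05) by Pearson r of the CAST and C57 alleles over the 14 P5 animals (filled) and by the r of a binomial split of each gene's summed reads (outline), for 8375 genes. Vertical lines mark the medians, 0.175 observed (solid) and 0.188 split (dashed). A gene's split value is an average over splits, so the outline is narrower than the filled histogram.

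The X-linked genes measured in the same libraries gave the opposite picture. Over the 261 X-linked genes of the same count, median r was −0.398, and 5 were called negative. Their median split r, 0.189, was as high as that of the autosomal genes. The allele ratio of X-linked genes also varied more between animals than reads dealt at random allow: the dispersion, Pearson's chi-square of the CAST share divided by its degrees of freedom, had a median of 3.16 in 260 X-linked genes and 0.995 in the 8375 autosomal genes, where 1 is the value of binomial counting alone. By a one-sided chi-square test of 12 degrees of freedom with Benjamini-Hochberg adjustment, 156 X-linked genes (60%) and 34 autosomal genes (0.406%) exceeded binomial counting. The background was 1.67% of 11736 genes, or 196 genes, and these 156 X-linked genes are among them.

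The 71 called genes were abundant ones. Their median mean summed count was 2684, against 353 for all 8392 genes, and 43 of them were among the 479 genes with 2000 or more (8.98%). The median SD of their summed log2 CPM was 0.0898, against 0.0877 for all 8392 genes. These SDs include counting error, which is smaller in genes with more reads, so they do not compare the variation beyond counting. In all 71, r exceeded 0.5 within the F1i animals and within the F1r animals, and it also exceeded 0.5 after the 2 animals farthest from the CAST median had been left out. In that repeat on 12 animals a gene, however, 18 genes were called, 13 of them among the 71. The 71 were picked for a high r over these same animals, so a high r within parts of them is no separate evidence. None of the 71 was among the genes with an overdispersed allele ratio. These were 0.406% of 8375 genes, a share at which 71 genes would hold few or none. The same animal was highest on both alleles in 43 of the 71 genes, and the same animal was lowest on both in 41. F1r replicate 2 was lowest on both alleles in 16 genes and highest in 6, and F1r replicate 4 was lowest in 10 and highest in 7.

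The number of called genes fell whichever animal was left out, and each of these repeats also had fewer animals to test. It was 32 without F1i replicate 1, 36 without F1i replicate 2, 41 without F1i replicate 3, 45 without F1i replicate 5 and 29 without F1i replicate 7. It was 32 without F1r replicate 2, 46 without F1r replicate 4 and 41 without F1r replicate 7, while leaving out any of the other 6 animals gave 48 to 61. Between 28 and 53 of the 71 genes were still called when 1 animal was left out. With ranks in place of values (Spearman), 42 genes were called, 35 of them among the 71. Of the 71, 15 were called in all 14 repeats, and 8 of these were called also with ranks, with libraries thinned to the smallest total, with the first principal component removed and without the 2 farthest animals: Snhg11, Cnpy1, Mobp, Rundc3a, Nefl, Nefm, Mbp and Tcf7l2. The median r over all 8392 genes stayed between 0.160 and 0.185 in these 14 repeats.

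Tcf7l2, a transcription factor of the Wnt pathway with strong expression in the thalamus and midbrain, had the highest r. Its CAST allele ran from 26.5 over a median of 42.1 to 47.4 CPM in F1i animals and from 14.8 over 31 to 60.5 CPM in F1r animals. Its C57 allele ran from 24.3 over 36.8 to 46.2 CPM in F1i animals and from 13.9 over 32.1 to 65.1 CPM in F1r animals. Replicate 5 was lowest and replicate 7 highest in F1i on both alleles, and replicate 2 was lowest and replicate 4 highest in F1r on both alleles. The alleles gave r = 0.984 (permutation test, adjusted p = 0.0120) and Spearman's rho = 0.978 (permutation p = 1e-05, the smallest that 100000 permutations can give), and r = 0.954 without the 2 farthest animals.

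Tfap2b, a transcription factor of several midbrain and hindbrain neuron groups, had the largest spread among the called genes, an SD of 0.52 on the summed log2 CPM scale. It was also the called gene with the lowest mean summed count, 202. Its CAST allele ran from 12.1 over 17.8 to 24.03 CPM in F1i animals and from 6.24 over 16.1 to 21.5 CPM in F1r animals. Its C57 allele ran from 13.3 over 16.0 to 23.2 CPM in F1i animals and from 6.24 over 15.6 to 19.7 CPM in F1r animals. As with Tcf7l2, F1r replicate 2 was lowest and F1r replicate 4 highest on both alleles, and F1i replicate 7 was highest on both. The alleles correlated with r = 0.962 (permutation test, adjusted p = 0.0120), rho = 0.960 (permutation p = 1e-05) and r = 0.895 without the 2 farthest animals. With the first principal component removed, Tfap2b was not called (r = 0.887, permutation test, adjusted p = 0.0635).

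**Figure D2:**
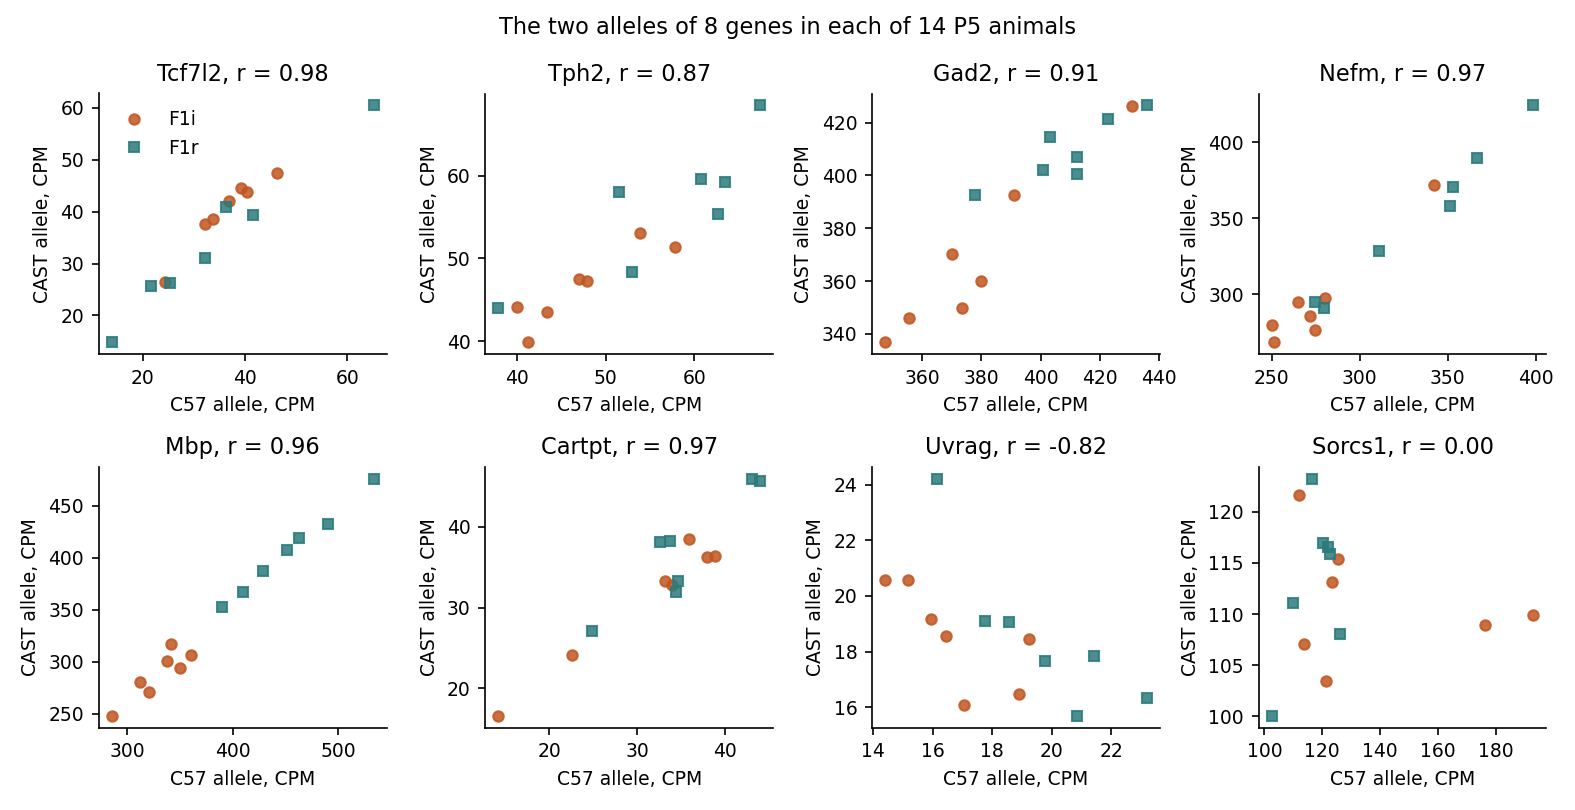
Level of the CAST allele (vertical axis, CPM) against that of the C57 allele (horizontal axis, CPM) in each of the 14 P5 animals for 8 genes, with F1i animals as circles and F1r animals as squares; r is after removal of the cross means. Tcf7l2, Tph2, Gad2, Nefm, Mbp and Cartpt lie along a rising line, Uvrag along a falling one (r = −0.82), and in Sorcs1 2 F1i animals stand apart on the C57 axis alone.

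The serotonergic list held 14 of the 8392 genes, of which 3 were called: Tph2, Ddc and Slc6a4. Its median r was 0.570, against 0.175 for all 8392 genes, and the median split r of its members was 0.610. This and the other lists were drawn up with earlier results of these data known, so their counts are descriptions. Every list count here and below stands beside 0.846% called over all 8392 genes. That share was 0.131% in genes of 100 to 500 counts and 8.98% in genes of 2000 or more, so a list's count also follows its read counts. Tph2 encodes the enzyme that sets the rate of serotonin synthesis in neurons, Ddc the decarboxylase that completes the synthesis, and Slc6a4 the transporter that takes serotonin back up. Because their alleles moved together within each gene, the promoters of Tph2 and Slc6a4 are shown here, with those of Gad1 and Gad2, the enzymes that make GABA, for comparison. Each runs 5′ to 3′ from 250 bases before to 50 bases after the annotated start, from RefSeq on GRCm38.p6. The capitals mark TATAAA, the TATA box motif, and GGAA, the core motif of ETS factors such as the serotonergic regulator Fev, each on either strand.
Tph2 (chr10:115184973-115185272, minus strand): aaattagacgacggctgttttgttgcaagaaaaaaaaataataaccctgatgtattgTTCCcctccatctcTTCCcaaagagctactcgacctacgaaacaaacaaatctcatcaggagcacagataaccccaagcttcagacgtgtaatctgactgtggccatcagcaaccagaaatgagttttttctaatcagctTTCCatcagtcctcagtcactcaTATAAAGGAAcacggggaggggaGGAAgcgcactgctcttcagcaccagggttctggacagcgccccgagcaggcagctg
Slc6a4 (chr11:76998347-76998646, plus strand): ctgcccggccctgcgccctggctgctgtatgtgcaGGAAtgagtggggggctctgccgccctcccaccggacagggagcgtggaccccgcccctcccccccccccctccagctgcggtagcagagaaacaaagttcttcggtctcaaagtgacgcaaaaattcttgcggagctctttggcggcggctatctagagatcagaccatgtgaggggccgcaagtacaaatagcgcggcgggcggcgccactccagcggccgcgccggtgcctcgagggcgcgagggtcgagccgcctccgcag
Gad1 (chr2:70561879-70562178, plus strand): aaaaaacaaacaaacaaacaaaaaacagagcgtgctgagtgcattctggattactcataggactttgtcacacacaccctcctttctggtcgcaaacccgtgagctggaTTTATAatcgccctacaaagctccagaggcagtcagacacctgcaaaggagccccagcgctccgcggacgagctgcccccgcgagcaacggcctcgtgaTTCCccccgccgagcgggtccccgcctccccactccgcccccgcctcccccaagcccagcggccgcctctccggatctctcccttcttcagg
Gad2 (chr2:22622077-22622376, plus strand): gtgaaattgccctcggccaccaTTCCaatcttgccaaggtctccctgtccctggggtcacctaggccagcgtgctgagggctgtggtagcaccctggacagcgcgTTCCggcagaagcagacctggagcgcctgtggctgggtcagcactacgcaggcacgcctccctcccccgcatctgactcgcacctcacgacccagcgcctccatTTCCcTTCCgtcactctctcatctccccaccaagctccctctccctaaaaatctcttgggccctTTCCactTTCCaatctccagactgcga

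The Tph2 promoter held 1 TATAAA, which began 30 bases before the start, and 5 GGAA matches, 1 of them directly after the TATAAA. The Slc6a4 promoter held no TATAAA and 1 GGAA, and the Gad2 promoter no TATAAA and 6 GGAA. The Gad1 promoter held 1 GGAA and 1 TATAAA, the latter on the opposite strand (TTTATA as shown), unlike that of Tph2. Neither motif overlapped the other. Of 32851 RefSeq promoters of the same length, 13.6% held TATAAA and 96.0% held GGAA on either strand, so the GGAA matches do not set these promoters apart, and a match is a description and not a binding site. Of the 71 called genes, 55 had a promoter in that table by symbol.

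The CAST allele of Tph2 ran from 39.8 over 47.3 to 53.0 CPM in F1i animals and from 44.0 over 58.0 to 68.5 CPM in F1r animals. The C57 allele of Tph2 ran from 39.9 over 46.9 to 57.8 CPM in F1i animals and from 37.8 over 60.7 to 67.5 CPM in F1r animals. In F1r, replicate 4 was lowest and replicate 7 highest on both alleles of Tph2. The alleles of Tph2 gave r = 0.868 (permutation test, adjusted p = 0.0307), with r = 0.899 in F1i and 0.853 in F1r, and rho = 0.837 (permutation p = 0.00061, adjusted p = 0.0896). Tph2 was called in 3 of the 14 repeats that left out 1 animal. It was not called without its 2 farthest animals (r = 0.769, permutation test, adjusted p = 0.230), with the first principal component removed (r = 0.792, permutation test, adjusted p = 0.161) or after thinning (r = 0.824, permutation test, adjusted p = 0.0848).

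Slc6a4 ran from 72.7 over 91.1 to 92.6 CPM on the CAST allele in F1i animals and from 76.8 over 102 to 119 CPM in F1r animals. On the C57 allele Slc6a4 ran from 67.2 over 72.7 to 83.0 CPM in F1i animals and from 68.8 over 84.8 to 100 CPM in F1r animals. Replicate 7 was lowest in F1i and replicate 4 lowest in F1r on both alleles. Slc6a4 gave r = 0.835 (permutation test, adjusted p = 0.0469) and rho = 0.802 (permutation p = 0.00153, adjusted p = 0.137), and r = 0.770 without the 2 farthest animals. Slc6a4 was called in 1 of the 14 repeats without 1 animal, and its r was 0.58 with the first principal component removed (permutation test, adjusted p = 0.429).

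Ddc had a lower CAST than C57 level in both crosses. Its CAST allele ran from 39.8 over 46.6 to 51.7 CPM in F1i animals and from 33.4 over 42.6 to 53.3 CPM in F1r animals, and CAST reads made up 45.8% of its counts in F1i and 38.0% in F1r. The C57 allele of Ddc ran from 47.0 over 55.7 to 62.5 CPM in F1i animals and from 59.7 over 73.3 to 83.2 CPM in F1r animals. Despite the unequal shares its alleles varied together, with r = 0.870 (permutation test, adjusted p = 0.0383), rho = 0.881 (permutation p = 0.00028, adjusted p = 0.0649) and r = 0.892 without the 2 farthest animals. The same replicates as for Slc6a4, 7 in F1i and 4 in F1r, were lowest on both alleles of Ddc. Ddc was called in 5 of the 14 repeats without 1 animal, and its r was 0.741 with the first principal component removed (permutation test, adjusted p = 0.222).

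The other serotonergic genes did not pass the test. Slc17a8, a vesicular glutamate transporter of serotonin neurons, had r = 0.84, and Gch1, which makes the cofactor of serotonin synthesis, had r = 0.70. The transcription factors Fev, En1 and Gata3 had r between 0.46 and 0.50, and the autoreceptor Htr1a had r = −0.07.

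Among the genes of GABA, glycine and glutamate neurons, 5 of 9 were called, the highest count of any list, and the list's median r was 0.864 with a median split r of 0.832. Among the called genes were Slc17a6, which loads glutamate into vesicles, Gad1 and Gad2, and Slc6a5, which takes up glycine. Slc17a6 ran from 111 over 123 to 140 CPM on the CAST allele in F1i animals and from 89.5 over 125 to 137 CPM in F1r animals. Its C57 allele ran from 104 over 129 to 148 CPM in F1i animals and from 91.3 over 136 to 144 CPM in F1r animals. As for Tcf7l2, F1i replicate 5 and F1r replicate 2 were lowest on both alleles of Slc17a6, and F1i replicate 7 was highest on both. Slc17a6 gave r = 0.946 (permutation test, adjusted p = 0.0120), rho = 0.934 (permutation p = 2e-05) and r = 0.876 without the 2 farthest animals (permutation test, adjusted p = 0.0502). It was called in all 14 repeats without 1 animal, but not with the first principal component removed, on which F1r replicate 2 had the largest loading (r = 0.824, permutation test, adjusted p = 0.133).

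Gad2 varied over a narrower range, from 337 over 360 to 426 CPM on the CAST allele in F1i animals and from 393 over 407 to 427 CPM in F1r animals. The C57 allele of Gad2 ran from 347 over 373 to 431 CPM in F1i animals and from 378 over 412 to 436 CPM in F1r animals. The same animals were lowest (F1i replicate 2, F1r replicate 6) and highest (F1i replicate 5, F1r replicate 7) on both alleles. Gad2 gave r = 0.910 (permutation test, adjusted p = 0.0188), rho = 0.802 (permutation p = 0.00162, adjusted p = 0.139) and r = 0.800 without the 2 farthest animals (permutation test, adjusted p = 0.180), and it was called in 11 of the 14 repeats without 1 animal.

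Slc6a5, a marker of glycinergic neurons of the hindbrain, ran from 21.3 over 26.6 to 37.2 CPM on the CAST allele in F1i animals and from 24.6 over 31.3 to 34.3 CPM in F1r animals. On the C57 allele Slc6a5 ran from 19.6 over 28.3 to 33.1 CPM in F1i animals and from 24.1 over 31.9 to 35.8 CPM in F1r animals. Its low and high animals were those of Slc17a6: replicates 5 and 7 in F1i, and replicate 2 as the lowest in F1r. Slc6a5 gave r = 0.905 (permutation test, adjusted p = 0.0295), rho = 0.820 (permutation p = 0.00111, adjusted p = 0.122) and r = 0.878 without the 2 farthest animals (permutation test, adjusted p = 0.137). Slc6a5 was called in 8 of the 14 repeats without 1 animal. Gad1 had r = 0.864 and was called in 5 of the 14. The vesicular GABA transporter Slc32a1, with r = 0.86, did not pass.

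Neurofilament genes led the list of cranial motor neuron markers, of which 2 of 8 were called, with a median r of 0.698 and a median split r of 0.712. Nefm encodes the medium subunit of the neurofilament of large axons, and Nefl the light subunit. Nefm ran from 268 over 286 to 372 CPM on the CAST allele in F1i animals and from 291 over 358 to 424 CPM in F1r animals. Its C57 allele ran from 250 over 272 to 342 CPM in F1i animals and from 275 over 351 to 399 CPM in F1r animals. F1i replicate 4 and F1r replicate 7 were highest on both alleles of Nefm. Nefm gave r = 0.975 (permutation test, adjusted p = 0.0145), rho = 0.930 (permutation p = 0.00017, adjusted p = 0.0455) and r = 0.948 without the 2 farthest animals, and Nefl gave r = 0.949. The heavy subunit Nefh, with r = 0.69, did not pass, nor did the choline transporter Slc5a7, with r = 0.72.

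Of the immature neuron and axon growth list, 3 of 15 genes were called, with a median r of 0.824 and a median split r of 0.769. These were Tubb2b, a tubulin of young neurons (r = 0.940), the growth cone protein Basp1 (r = 0.926) and Crmp1, which relays guidance signals in growing axons (r = 0.875). Basp1 ran from 684 over 739 to 794 CPM on the CAST allele in F1i animals and from 689 over 711 to 730 CPM in F1r animals. On the C57 allele Basp1 ran from 651 over 731 to 770 CPM in F1i animals and from 677 over 691 to 730 CPM in F1r animals. Without its 2 farthest animals r of Basp1 was 0.771 (permutation test, adjusted p = 0.243), and rho over all animals was 0.916 (permutation p = 0.00015, adjusted p = 0.0441). The growth cone gene Gap43, with r = 0.61, did not pass.

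Of 18 presynaptic genes 3 were called, Sv2c and Syt1, which encode synaptic vesicle proteins, and Cplx2, which encodes a complexin that acts at vesicle fusion. Their r was 0.969, 0.900 and 0.898, while the list's median r was 0.558 and its median split r 0.653. The active zone genes Rims1 and Unc13a had r of −0.02 and 0.07.

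Oligodendrocyte genes were held in 2 lists, of myelin and of precursors. Of 10 myelin genes 2 were called, Mbp and Mobp, which encode proteins of compact myelin, with a list median of 0.609 and a median split r of 0.628. Mbp ran from 248 over 294 to 317 CPM on the CAST allele in F1i animals and from 353 over 408 to 476 CPM in F1r animals. On the C57 allele Mbp ran from 285 over 338 to 360 CPM in F1i animals and from 390 over 452 to 534 CPM in F1r animals. The crosses did not overlap on either allele of Mbp, and the correlation was of the variation that was left within the crosses. Mbp gave r = 0.958 (permutation test, adjusted p = 0.0145), rho = 0.921 (permutation p = 3e-05) and r = 0.925 without the 2 farthest animals, and Mobp gave r = 0.952. Of 13 genes of oligodendrocyte precursors only Ptprz1, a receptor phosphatase that astrocytes also express, was called (r = 0.947). The list's median r was 0.269 and its median split r 0.459, and the precursor markers Pdgfra and Cspg4, with r of 0.71 and 0.27, did not pass.

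Of 17 neuropeptide genes 2 were called, Cartpt, the precursor of the CART peptides, and Chgb, a protein of dense core vesicles. Cartpt ran from 16.6 over 33.3 to 38.5 CPM on the CAST allele in F1i animals and from 27.1 over 38.2 to 45.9 CPM in F1r animals. The C57 allele of Cartpt ran from 14.2 over 33.9 to 38.8 CPM in F1i animals and from 24.8 over 34.4 to 44.0 CPM in F1r animals. F1i replicate 1 and F1r replicate 6 were lowest on both alleles. Cartpt gave r = 0.966 (permutation test, adjusted p = 0.0188), rho = 0.877 (permutation p = 0.00038, adjusted p = 0.0709) and r = 0.895 without the 2 farthest animals (permutation test, adjusted p = 0.0645), and it was called in 9 of the 14 repeats without 1 animal. Chgb had r = 0.866. The precursors of TRH, somatostatin and neurotensin, Trh, Sst and Nts, had r of 0.69, 0.47 and −0.02 and did not pass.

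No gene of the other lists was called. The astrocyte list had the highest median r among these with 10 or more genes, 0.50 over 16 genes, with a median split r of 0.550. Its glutamate transporters Slc1a2 and Slc1a3 both had r = 0.82. The 18 genes of cholesterol synthesis had a median r of 0.486, above their median split r of 0.316, with Tm7sf2 at 0.73 and Insig1 at −0.45. The median r was 0.357 over 7 immediate early genes, with a median split r of 0.396. It was 0.268 over 27 genes of oxidative phosphorylation (split 0.254) and 0.228 over 8 microglial genes (split 0.243). Over 17 cytosolic ribosomal protein genes it was 0.226, with a split of 0.245 in the 16 that had a mean count of 10 or more on each allele. The median r was lowest in 13 endothelial and mural genes, −0.0450, with a median split r of 0.149. In this list Slco1a4 was at 0.56 and Egfl7 at −0.47.

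**Figure D3:**
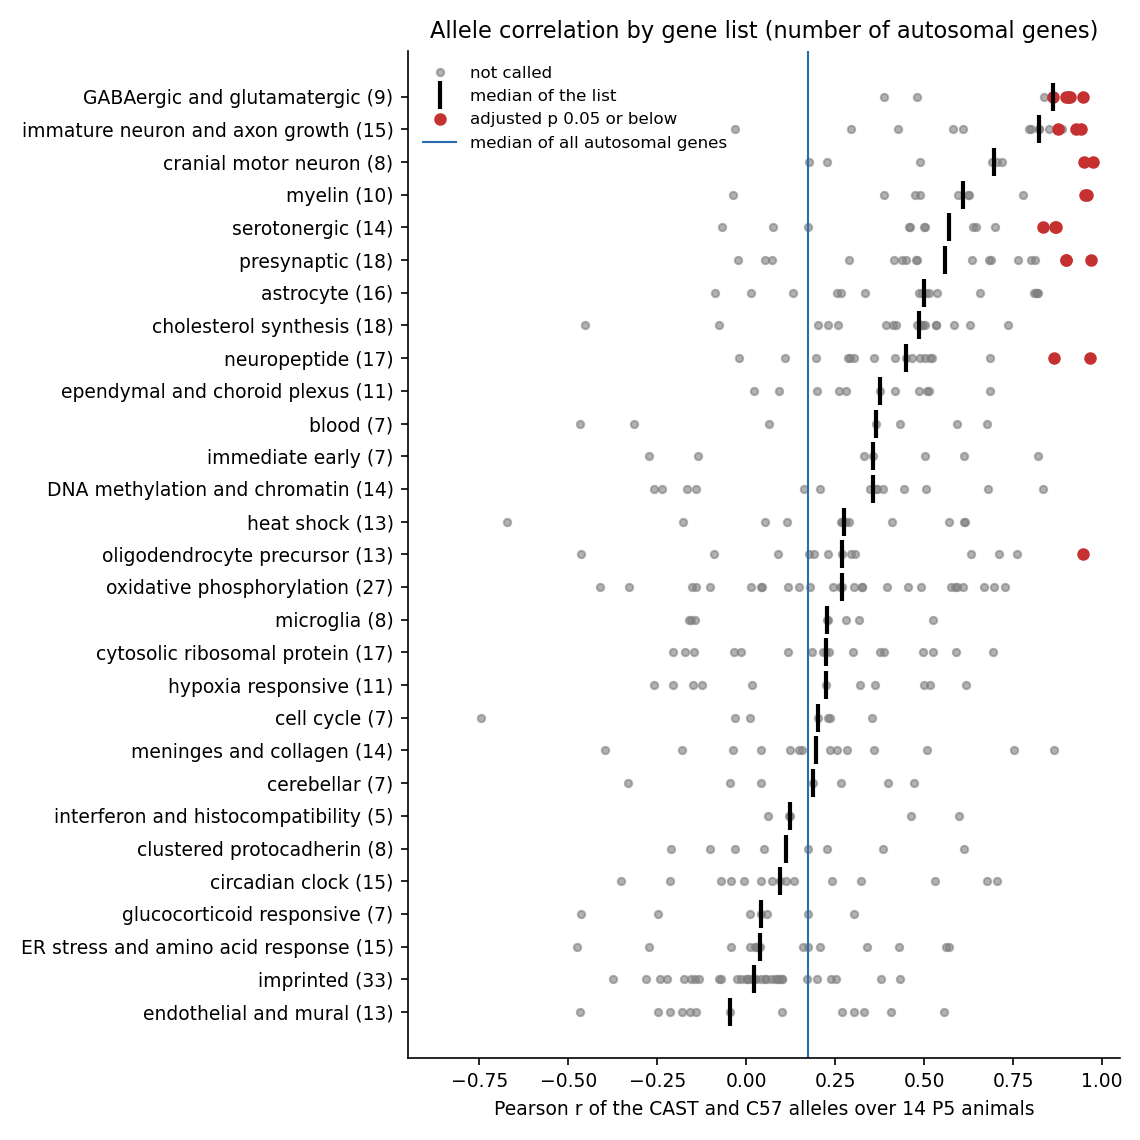
Pearson r of the CAST and C57 alleles over the 14 P5 animals (horizontal axis) for each autosomal gene of the gene lists with 5 or more such genes, with lists sorted by their median (black tick) and the number of genes in brackets. Large dots are genes with an adjusted p of 0.05 or below, and the vertical line is the median of all 8392 genes, 0.175.

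Most of the called genes were in none of the lists. Among them were Cpe, a carboxypeptidase that processes peptide hormones (r = 0.970), Cacna2d1, a subunit of voltage-gated calcium channels (r = 0.965), and App, the amyloid precursor protein (r = 0.893). The calcium-binding protein Calb2 (r = 0.875), the neuronal nitric oxide synthase Nos1 (r = 0.878) and the transcriptional regulator Lmo3 (r = 0.889) mark subsets of neurons. The long noncoding RNAs Snhg11 and Malat1, both retained in the nucleus, had r of 0.966 and 0.943. The strand on which reads were counted is not given in the sources used here, so reads of a gene and of an antisense partner cannot be told apart.

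At the other end of the distribution no gene passed the test, and the 10 lowest values of r with 50 or more counts on each allele lay between −0.817 and −0.723. Uvrag, an autophagy gene, had the lowest, with CAST levels from 16.1 over 18.5 to 20.6 CPM in F1i animals and from 15.7 over 17.9 to 24.2 CPM in F1r animals. Its C57 levels ran from 14.4 over 16.5 to 19.2 CPM in F1i animals and from 16.1 over 19.8 to 23.2 CPM in F1r animals. F1r replicate 1 was highest on the CAST allele and lowest on the C57 allele of Uvrag. Uvrag gave r = −0.817 (permutation test, adjusted p = 0.0765) and rho = −0.829 (permutation p = 0.00074, adjusted p = 0.0959), with r = −0.774 without the 2 farthest animals and a split r of −0.483. Uvrag was also among the 34 genes with an overdispersed allele ratio (dispersion 2.88, chi-square test, adjusted p = 0.0363).

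Dip2c, which followed with r = −0.809 (permutation test, adjusted p = 0.0822), had a summed level that hardly varied, with an SD of 0.0255 on the log2 scale, and a split r of −0.721. Its CAST allele ran from 33.3 over 38.8 to 40.4 CPM in F1i animals and from 36.9 over 40.4 to 42.9 CPM in F1r animals. Its C57 allele ran from 38.4 over 40.8 to 43.2 CPM in F1i animals and from 35.7 over 38.2 to 41.4 CPM in F1r animals. Where the sum of the alleles is nearly constant, reads gained by the CAST allele are reads lost to the C57 allele, and the binomial split gives a negative r as well. The dispersion of Dip2c was 1.42 and did not pass the chi-square test (adjusted p = 0.754), and without the 2 farthest animals its r was −0.675. The other 8 lowest, Zfp623, Ppp1r3d, Mrps23, Tiam2, Kctd18, 3110040N11Rik, Ttll4 and Fxr2, all had a negative split r too, between −0.672 and −0.349.

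Of the 34 overdispersed genes, 5 were in the imprinted list, Peg3, Meg3, Zdbf2, Inpp5f and Rasgrf1, and 9 lay on chromosome 19, which carries 297 of the 8392 genes. Peg3 is expressed from the paternal copy alone in most mouse tissues, and its CAST share ran from 0.101% over 0.176% to 0.293% in F1i animals and from 98.6% over 99.7% to 99.9% in F1r animals. Meg3, a maternally expressed RNA, showed the mirror image, with CAST shares from 98.8% over 99.4% to 99.6% in F1i animals and from 0.0559% over 0.156% to 0.208% in F1r animals. The dispersion of Peg3, 16.9, and of Meg3, 16.1, were the largest of all autosomal genes and rested on the few reads credited to the silent copy, which in Peg3 ran from 1.26 over 3.86 to 17.2 CPM on the C57 allele of F1r animals. The 33 imprinted genes had a median r of 0.0234 and none was called. No median split r is given for them. The split computation pools the counting noise of each allele over the crosses. In genes with 1 silent copy, that copy is CAST in 1 cross and C57 in the other. The pooling makes the split r of such genes too negative, and these values are among the split values above.

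A run of neighbouring genes on chromosome 19 shared the same 2 animals. This run was noticed in the values and chosen after they were seen, and it carries no test of its own. In RefSeq order on GRCm38.p6, the 13 genes of the 8392 between Sh3pxd2a and Shoc2 all had their 2 lowest CAST shares of the F1i cross in replicates 1 and 4, and both animals also had the 2 highest C57 levels of their cross in all 13. Among all 8392 genes, these animals were the lowest 2 of F1i in CAST share in 425 (5.06%). None of the 17 genes before and after the run, between Trim8 and Tcf7l2, had both animals lowest, and none of the 17 was overdispersed, while 8 of the 13 genes in the run were.

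Summed over the 13 genes, CAST reads made up 40.9% in F1i replicate 1 (95% Wilson interval 39.9 to 42.0) and 39.3% in F1i replicate 4 (38.3 to 40.3). In the other 5 F1i animals the summed CAST share was 49.5% to 50.9%, and in the 7 F1r animals it was 50.2% to 52.4%. The intervals cover counting error only. The CAST allele did not stand apart: its summed level was 530 CPM in replicate 1 and 526 CPM in replicate 4, against 506 to 547 CPM in the other F1i animals and 528 to 551 CPM in the F1r animals. The C57 allele did, with 765 CPM in replicate 1 and 813 CPM in replicate 4, against 511 to 539 CPM in the other F1i animals and 495 to 526 CPM in the F1r animals.

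Sorcs1, a sorting receptor of neurons, had the most reads in the run and the largest dispersion, 13.99 (chi-square test, adjusted p = 7.8e-27). Its C57 allele had 176 CPM in F1i replicate 1 and 193 CPM in F1i replicate 4, against 112 to 125 CPM in the other F1i animals and 103 to 126 CPM in F1r animals. Its CAST allele had 109 and 110 CPM in these animals, within the range of the others. The r of Sorcs1 was 0.00228, with a split r of 0.873. The other overdispersed genes in the run were Xpnpep1 (dispersion 6.66), Sorcs3 (4.38), Shoc2 (4.07), Gsto1 (3.81), Cfap43 (3.61), Slk (3.33) and Sh3pxd2a (3.18). At P15, CAST shares of Sorcs1 ran from 45.8% to 49.6% in F1i animals and from 45.7% to 53.9% in F1r animals, and no gene of the run had replicates 1 and 4, which are other animals, as its lowest of F1i.

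**Figure D4:**
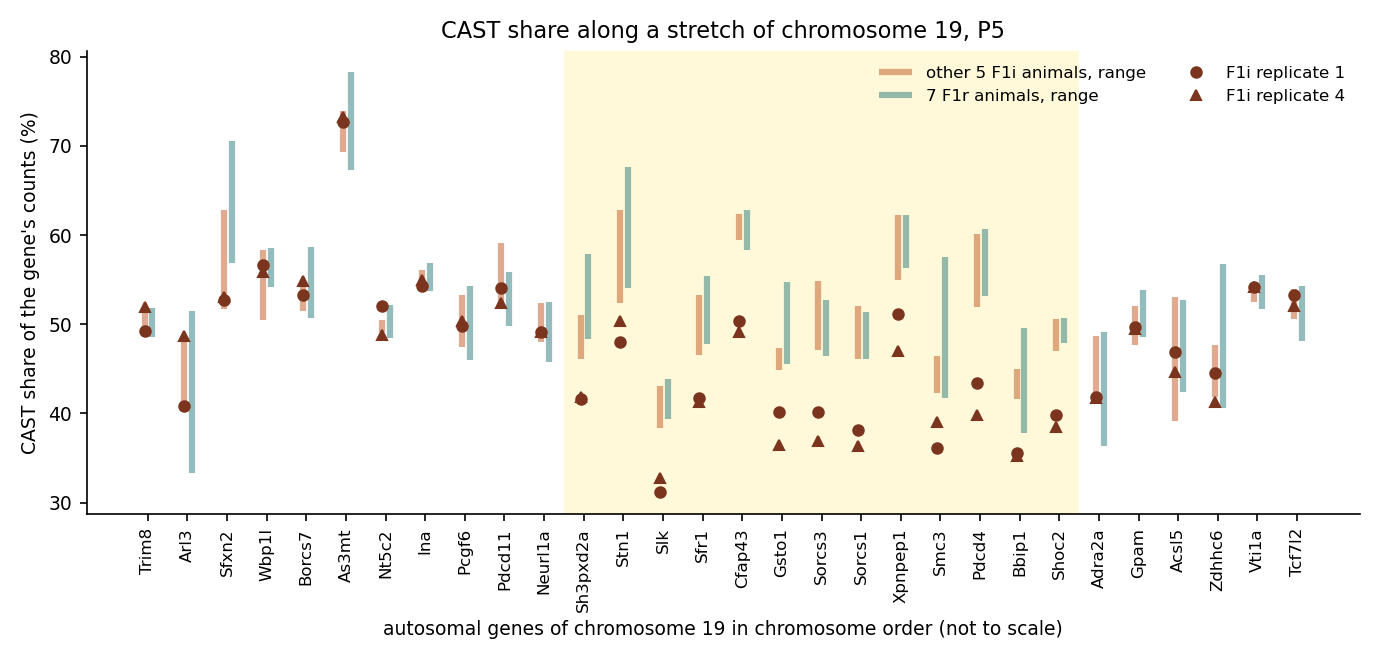
CAST share of each gene's counts (vertical axis, %) at P5 for 30 autosomal genes in their order on chromosome 19, with F1i replicates 1 and 4 as points, the range of the other 5 F1i animals and the range of the 7 F1r animals as bars. Within the shaded run from Sh3pxd2a to Shoc2 both points lie below both bars in nearly every gene, and outside it they lie among them.

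Ide, also on chromosome 19 and outside the run, behaved differently. Ide encodes an enzyme that degrades insulin. Its C57 allele ran from 79.7 over 123 to 166 CPM in F1i animals and from 78.0 over 111 to 134 CPM in F1r animals, while its CAST allele stayed between 72.2 and 81.8 CPM in F1i animals and between 73.3 and 80.7 CPM in F1r animals. Ide was overdispersed at P5 (dispersion 11.1, chi-square test, adjusted p = 4.79e-20) and at P15 (11.99, adjusted p = 3.7e-22), and its r at P5 was 0.363 with a split r of 0.913. The neighbour Tnks2 had CAST shares of 46% to 49.5% in F1i and 45.7% to 49.6% in F1r animals at P5, against 32.6% to 49.7% and 37.5% to 48.5% for Ide.

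Vti1b and Rdh11, adjacent genes on chromosome 12 that encode a vesicle fusion protein and a retinol dehydrogenase, varied in CAST share in the same animals. Both were chosen for their dispersion, and the values are a description. In Vti1b it was the CAST allele that varied, from 139 over 170 to 192 CPM in F1i animals and from 117 over 139 to 182 CPM in F1r animals. The C57 allele of Vti1b stayed between 109 and 120 CPM in F1i animals and between 105 and 121 CPM in F1r animals. Its CAST share ran from 53.8% to 63.9% in F1i animals and from 49.2% to 61.8% in F1r animals, and that of Rdh11 from 45.9% to 61.7% in F1i animals and from 40.5% to 59.8% in F1r animals. F1i replicate 3 was lowest and F1r replicate 4 highest in their cross for both genes. The same 2 animals were lowest and highest in Zfyve26, a gene nearby on the chromosome, whose CAST share ran from 51.3% to 61.9% in F1i animals and from 49.1% to 60.3% in F1r animals. Tmem229b, Plekhh1, Pigh and Atp6v1d were looked at too. None of them had F1i replicate 3 lowest or F1r replicate 4 highest in its cross. The dispersion of Zfyve26, 2.02, did not pass at P5 (chi-square test, adjusted p = 0.393), and at P15 it was 2.79 (chi-square test, adjusted p = 0.0376). Both were overdispersed at P5 (Vti1b 9.7, Rdh11 6.55) and at P15 (Vti1b 17.0, Rdh11 5.28). Of the 34 genes overdispersed at P5, 7 were so at P15: Peg3, Meg3, Ide, Vti1b, Rdh11, Rasgrf1 and Emp2. At P15 the background was 2.4% of genes tested.

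The alleles of the same genes varied together more at P15. Median r was 0.175 at P5 and 0.633 at P15, and the median split r was 0.188 at P5 and 0.637 at P15. At each age the observed and split medians lay close together, which is partly fixed in advance because the split keeps the summed counts. The summed level of the genes varied less between animals at P5, with a median SD of 0.0877 on the log2 scale at P5 and 0.177 at P15, and 94.3% of the genes had the larger SD at P15. Total counts at P15 ranged between 3692778 and 8032987. In the test used above, 71 of the 8392 genes were called positive at P5 and 4099 at P15, where the background was 37.4% of the genes tested, and 67 of the 71 P5 genes were among the P15 genes. These 67 are 94.4% of the P5 list and 1.63% of the P15 list. With reads of both ages thinned to the smallest total of any animal, 6 genes were called at P5 and 3173 at P15, 5 of them shared, and median r was 0.126 at P5 and 0.561 at P15.

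**Figure D5:**
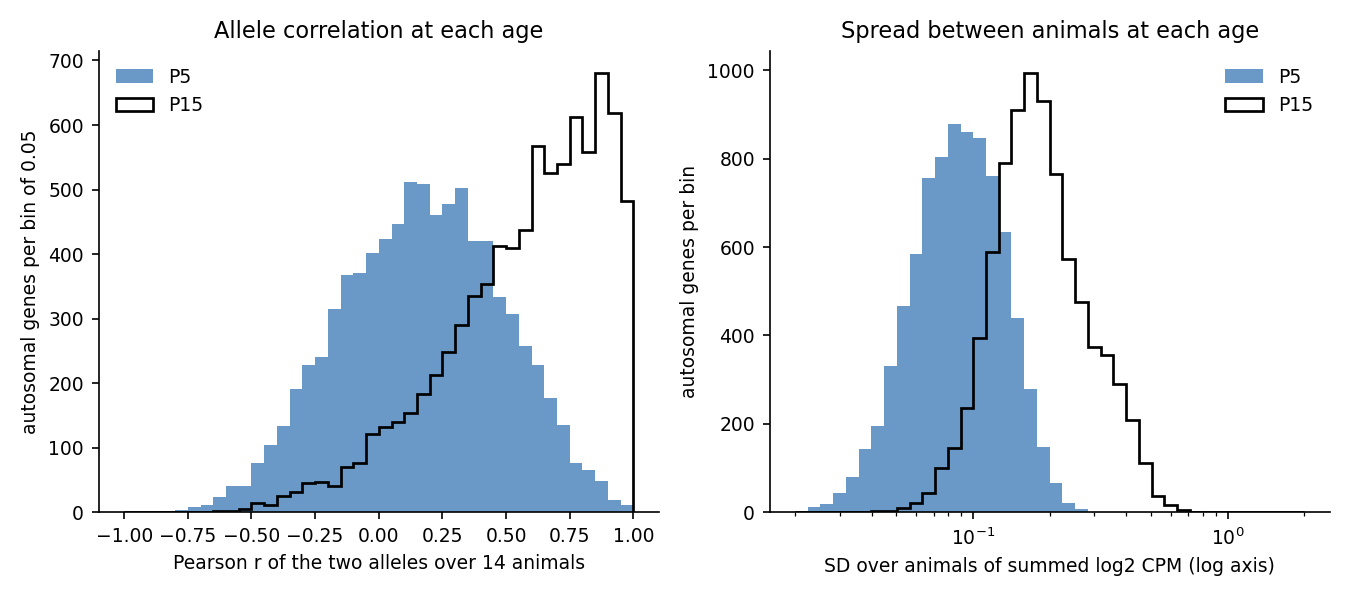
Number of autosomal genes by Pearson r of the alleles (left, bins of 0.05) and by the SD between animals of their summed log2 CPM (right, log axis), at P5 (filled) and P15 (outline). Median r was 0.175 at P5 and 0.633 at P15, and median SD 0.0877 at P5 and 0.177 at P15.

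The 4 genes called at P5 and not at P15 were Tfap2b, Vopp1, Mpped1 and Abat. The r of Tfap2b was 0.962 at P5 and 0.270 at P15, its mean summed count 202 at P5 and 25.4 at P15, and its split r 0.920 at P5 and 0.520 at P15. The r of Abat, which breaks down GABA, was 0.846 at P5 and −0.168 at P15, with a dispersion of 0.521 at P5 and 22.98 at P15. The difference itself, tested by permuting animals between ages within each cross with adjustment over 11646 genes, did not pass for Tfap2b (adjusted p = 0.194) or Abat (adjusted p = 0.104).

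By the same permutation test of the difference, r differed between P5 and P15 in 37 of 8387 genes (0.441%), a share near the background of 0.438%, and was higher at P15 in all 37. With TMM factors the number was 79. At an unadjusted p of 0.05 the number was 2360 (28.1%). The largest called difference was in Ppp1r3d, a regulatory subunit of a phosphatase that acts on glycogen, with r = −0.777 at P5 and 0.886 at P15 (permutation test, adjusted p = 0.0388). Next came Fxr2, an RNA-binding protein of the fragile X family, with −0.723 at P5 and 0.805 at P15 (permutation test, adjusted p = 0.0318), and Camkk2, a kinase upstream of AMPK, with −0.639 at P5 and 0.887 at P15 (permutation test, adjusted p = 0.0475). Phrf1 had r of −0.576 at P5 and 0.919 at P15, and Inafm1 of −0.602 at P5 and 0.875 at P15. Ppp1r3d and Fxr2 are also among the 10 lowest values at P5, all of which had a negative split r at that age. The median split r over the genes was itself 0.188 at P5 and 0.637 at P15. Whether the differences go beyond those of the split was not tested, so a negative r at P5 is not a sign of opposed alleles. No gene was called as more correlated at P5.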

How the data were processed

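The dorsal raphe nucleus of 14 P5 animals and 14 P15 animals was analysed. Reads were 50 bp single-end TruSeq reads, per the labels' protocols, aligned with Novoalign to mm9, per the submitters' processing notes. The authors deposited raw counts, in whole numbers, for the CAST and the C57 allele of each gene. How the authors assigned reads to alleles, treated reads that match several places or used strand is not given in the sources used here, and reads that cover no strain difference cannot enter an allele count. The 28 libraries were grouped by cross and age from their labels, and 0 columns of no sample were used.

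The members, gene lists and tests were chosen with earlier results of these data known. Symbols came from a gene name table (14969 of 15499 matched) and chromosomes from GENCODE vM21. Log2 CPM used the sum of both alleles as library size and a prior count of 1. Pearson's r was tested with 100000 two-sided within-cross permutations (Benjamini-Hochberg, threshold 0.05, mean summed count of 20 or more). The binomial split was integrated numerically, with the counting noise of each allele pooled over the crosses. Dispersion needed a mean count of 10 on each allele. The code was tested on simulated data with known answers. Genes are named by rule among those with 50 or more counts on each allele: the 10 largest r and the 10 largest SD among called genes, the 10 lowest r, the 10 largest dispersions, up to 3 highest and the lowest of each list, and the 5 largest differences between ages; other list members and the genes around the chromosome 19 run serve as examples chosen after their values were seen. edgeR 4.0.16 (TMM) and DESeq2 1.42.0 (size factors) gave alternative scalings only. Software was Python with NumPy, pandas and SciPy, and R 4.3.3. Alternatives were other scalings, a prior count of 5, ranks, thinning, cross means kept, a replicate block, removal of the first principal component, other count limits and leaving out each animal.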

Additional observations from a re-analysis of the deposited data

Results flagged for a closer look

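Among 68 groups of 7 values looked at (total count, CAST share, and the CAST and C57 CPM of 16 genes in each cross), 5 held a highest value far from the other 6. Chance flags about 5% of groups that were not picked by their values. The 16 genes were picked with their values in these data known, so this rate is only a rough guide. The total count was 10319139 in F1i replicate 7, where the next was 6521001, and 7544469 in F1r replicate 7, where the next was 6224999. Nefm had 372 CPM on the CAST allele and 342 CPM on the C57 allele in F1i replicate 4, where the next values were 298 and 280 CPM. The same animal stood apart on both alleles, in a gene that was named for the high r of its alleles. Uvrag had 24.2 CPM on the CAST allele in F1r replicate 1, where the next was 19.1 CPM.

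The r of the alleles differed between P5 and P15 in 37 genes by the permutation test of the difference. Among them, r at P5 minus r at P15 was −1.66 for Ppp1r3d, −1.53 for Fxr2, −1.53 for Camkk2, −1.50 for Phrf1 and −1.48 for Inafm1. The split r also differed between the ages, and these differences were not tested against it.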

How the results depend on the processing

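The count of 71 called genes was 71 with TMM factors, 72 with DESeq2 size factors, 71 with a prior count of 5 and 62 with no filter on low counts. It was 42 with ranks, 25 with libraries thinned to the smallest total, 228 with cross means kept, 35 with the first principal component removed, 18 without the 2 farthest animals of each gene and 29 to 61 without 1 animal. Negative calls, 0 otherwise, were 37 with cross means kept, 1 with the component removed and 0 to 2 without 1 animal. Median r was 0.136 without the 2 farthest animals, 0.207 at a limit of 200 counts and 0.126 with both ages thinned to 1 common total, and in the other settings within 1 jackknife SE (0.0266) of 0.175. Overdispersed genes numbered 20 after thinning and 28 to 38 without 1 animal. The median of observed minus split r ranged between −0.0251 and −0.0198 without 1 animal. The P5 to P15 difference count was 79 with TMM factors, and 5 genes were shared with P15 after thinning both ages. The r of Meg3 was −0.99 with cross means kept, a setting that correlates the crosses themselves in imprinted genes. The cause of the other shifts was not tested.

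With a replicate block, which takes 7 differences between F1i and F1r animals of the same number and permutes them exactly, 0 genes were called, and median r was 0.169. The smallest p these permutations gave was 0.000198, and the smallest adjusted p 0.217, so the setting could hardly call a gene and says nothing on stability. At an unadjusted p of 0.05 it gave 574 genes with a positive r, and over the 71 genes its r ran from 0.303 over a median of 0.923 to 0.994. The labels do not say that a number pairs animals, and the correlation of same-numbered deviations ran between −0.105 and 0.106, so the animals share a number only. On depth, the median split r was 0.107 in genes of 100 to 200 counts and 0.564 in genes of 2000 or more.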
